A study of Mus musculus with 5 samples.

Results

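The carnitine shuttle was described through 8 genes, picked by symbol from a transcript table of 24531 genes: the carnitine acyltransferases Cpt1a, Cpt1b, Cpt1c, Cpt2, Crat and Crot, and the carriers Slc25a20 and Slc22a5. Estimated read counts were summed per gene in all 5 libraries, and all 8 genes passed the filter on low counts. There were 2 libraries from Prmt1 FKO mice, which carry an adipocyte-specific knockout of the arginine methyltransferase Prmt1. They were set against 3 libraries titled Prmt1 f/f, whose genotype is given as WT. All came from epididymal primary adipocytes of C57BL/6N mice kept on a high-fat diet for 12 weeks, so both groups share the diet, and mice on another diet are not analysed here. The sources used here do not give the Cre line, the exons removed, the sex or age of the mice, or whether each library was a separate animal. The p-values therefore measure the spread between these libraries, which may be technical.

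Long-chain fatty acids enter mitochondria as carnitine esters. Carnitine palmitoyltransferase 1 (CPT1) on the outer membrane joins the acyl group to carnitine, the carrier Slc25a20 exchanges acylcarnitine for carnitine across the inner membrane, and CPT2 on the matrix side hands the acyl group back to coenzyme A. CPT1 is the regulated step: malonyl-CoA, the product of acetyl-CoA carboxylase, inhibits it. Cpt1a is the form of liver and most tissues, Cpt1b that of muscle and brown fat, and Cpt1c that of neurons. White adipocytes mostly store fatty acids, and brown fat is known for high rates of their oxidation.

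The libraries held 45665542 to 49981062 estimated counts in FKO and 43580154 to 57016997 in f/f. Prmt1 itself stood at 21 and 19.3 CPM (counts relative to library size, scaled with trimmed mean of M-values factors) in FKO, against 34.1, 29.4 and 32.3 CPM in f/f. It fell by 0.66 on the log2 scale (edgeR adjusted p = 0.0171, and 0.115 and 0.161 without FKO replicate 1 or FKO replicate 2). It remained detectable in FKO, and reads from other cells or from outside the deleted part cannot be told apart. The adipocyte marker Adipoq was high throughout, at 5987 and 5508 CPM in FKO and 4421 to 5778 CPM in f/f. The 8 adipocyte markers summed to 54523 and 49256 CPM in FKO against 34591 to 42976 CPM in f/f, without overlap. Of these, 1 was called higher (Cidec, 1.84-fold, edgeR adjusted p = 0.0159) and 0 lower. The log2 fold changes of Lep (-0.72) and Lipe (-0.012) were below 0 and not called. Markers of other cells moved with genotype, where 11.9% of all genes tested were called higher and 13.4% lower. Of 9 macrophage markers 8 were lower in FKO, with a summed level of 371.5 and 502.4 CPM against 862.5 to 1602 CPM in f/f, and all 6 mesothelial markers tested were lower, with 21.3 and 13.7 CPM against 46.6 to 89.5 CPM. With FKO replicate 1 or FKO replicate 2 left out, 1 and 5 macrophage markers and 3 and 1 mesothelial markers were called. The 7 fibroblast and progenitor markers summed to 542 and 435 CPM in FKO against 910 to 1097 CPM in f/f, and the 6 endothelial markers to 479 and 428 CPM in FKO against 432 to 666 CPM in f/f. The 6 epididymis and testis markers had 0 counts in both FKO libraries and summed to 7.81, 0.425 and 1.01 CPM in f/f, highest in f/f replicate 1. Most of this was Crisp1, an epididymal secretory protein, with 283, 21 and 63 counts in f/f (edgeR adjusted p = 0.0391). The part of these cells in the results was not tested. In bulk RNA, fewer cells of a type and less RNA per cell cannot be told apart.

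Transcripts of 6 of the 8 genes were higher in FKO adipocytes and those of 1 were lower. Cpt1b rose most, 20.3-fold, and Slc25a20, Slc22a5, Crot, Cpt2 and Crat rose 2.48-, 2.22-, 2.03-, 1.91- and 1.62-fold, while Cpt1c fell 4.42-fold and Cpt1a did not pass the test. The calls rest on the edgeR quasi-likelihood test at a Benjamini-Hochberg adjusted p of 0.05 over all genes. Among the 14492 genes tested, 25.4% were called in either direction, 11.9% as higher and 13.4% as lower. The median log2 fold change of the 8 genes was 0.98, against -0.047 over all genes tested. The FKO and f/f libraries did not overlap in 7 of the 8 genes, as in 59% of all genes tested. With FKO replicate 1 or FKO replicate 2 left out, which leaves 1 FKO library, 3 and 2 of the 8 genes were called, and 6.07% and 6.81% of all genes.

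**Figure D1:**
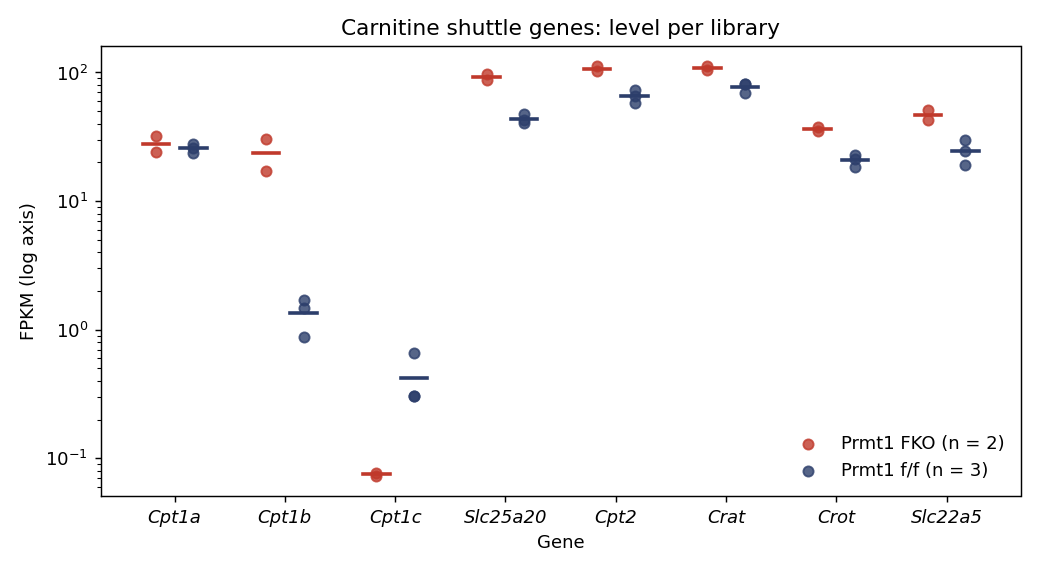
Level of each carnitine shuttle gene in FPKM (fragments per length and depth, log axis) in each library, Prmt1 FKO in red on the left and Prmt1 f/f in blue on the right, with bars at the group means. Cpt1b lies at 17.2 and 30.5 FPKM in FKO and at 0.872 to 1.72 FPKM in f/f, and Cpt1a is the only gene whose groups overlap.

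At the entry step, Cpt1a, the most abundant CPT1 form in both groups, did not pass the test. Cpt1a (gene 12894, chromosome 19, 3323301 to 3385733, mm10) had 116.4 and 151.5 CPM in FKO, against 100.8, 116.9 and 100.8 CPM in f/f. The lower FKO library lay within the f/f range and the other lay above it. The log2 fold change was 0.34 (SE 0.17, edgeR adjusted p = 0.177), and over 15 alternative settings it stayed between 0.10 and 0.51 with no call.

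Cpt1b (gene 12895, chromosome 15, 89416405 to 89425862) had 56.1 and 96.9 CPM in FKO, against 2.48, 4.88 and 3.89 CPM in f/f. The lower FKO library thus held over 10 times the level of any f/f library, and the 2 FKO libraries also differed from each other. The means were 76.5 ± 28.9 CPM (SD, n = 2) in FKO and 3.75 ± 1.20 CPM (SD, n = 3) in f/f, with a log2 fold change of 4.34 (SE 0.34, edgeR adjusted p = 0.00100). In counts this was 6599 reads over the FKO libraries and 648 over the f/f libraries. The call held in all 15 alternatives of scaling, filter, tool, block and left-out library, with log2 fold changes of 3.36 to 4.69.

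Cpt1a and Cpt1b catalyse the same step, and their levels were set side by side per length. The 3 CPT1 genes summed to 41.3 and 62.6 FPKM in FKO, against 25.0, 29.7 and 28.0 FPKM in f/f. Cpt1b held 41.6% and 48.7% of that sum in FKO, against 3.48%, 5.77% and 5.28% in f/f. Cpt1a exceeded Cpt1b by 1.40- and 1.05-fold in FKO and by 16.1- to 27.4-fold in f/f. The mean share was 45.2 ± 4.98% (SD, n = 2) in FKO and 4.85 ± 1.21% (SD, n = 3) in f/f, a difference of 40.3 percentage points. The exact permutation test over libraries (two-sided, with the smaller tail doubled) gave p = 0.2. With this doubling, it is the smallest p that 2 libraries against 3 can give. On this scale the mean of Cpt1a was 28.0 ± 5.65 FPKM (SD, n = 2) in FKO and 25.8 ± 1.92 FPKM (SD, n = 3) in f/f, so most of the added CPT1 level was Cpt1b.

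**Figure D2:**
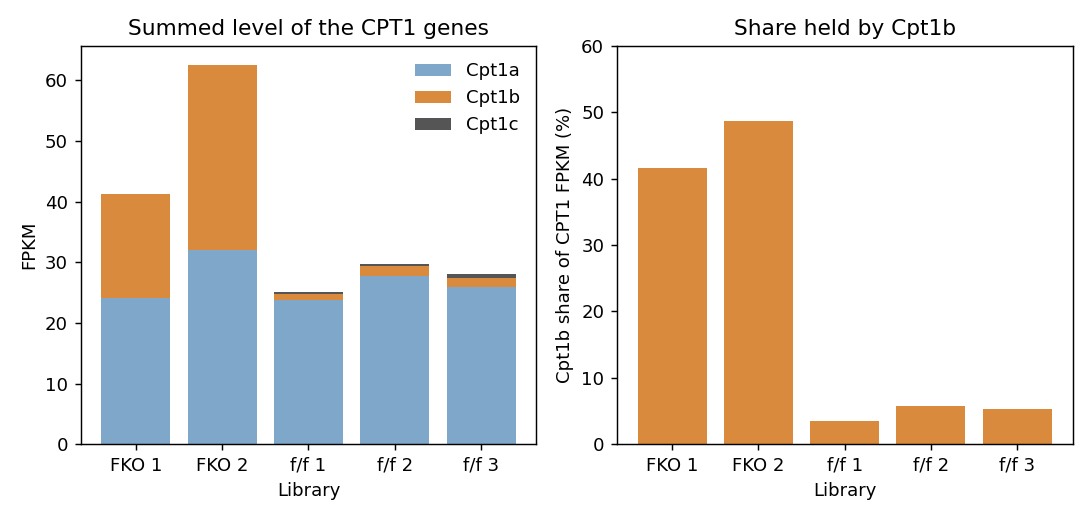
Left, FPKM of Cpt1a, Cpt1b and Cpt1c stacked in each library (FKO on the left); right, the share of that sum held by Cpt1b, in percent. In the FKO libraries Cpt1b holds 41.6% and 48.7%, and in the f/f libraries at most 5.77%.

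The Cpt1b locus needs care in counting. Chkb, which codes for choline kinase beta, lies at higher coordinates on the same chromosome (89426349 to 89429927). A gap of 486 bases separates it from Cpt1b, counted by coordinate and not by direction of transcription. The table also lists Gm44502, a noncoding transcript from 89416405 to 89429927 that spans both genes. Gm44502 had 0.667 and 6.30 CPM in FKO, against 1.09, 0.0850 and 0.578 CPM in f/f. The lower FKO library lay within the f/f range, and the difference was not called (log2 fold change 2.60, SE 1.05, edgeR adjusted p = 0.111), though DESeq2 called it (adjusted p = 0.0339). Chkb had 42.7 and 50.8 CPM in FKO, against 33.5, 33.5 and 38.0 CPM in f/f. The groups did not overlap, but the log2 fold change of 0.42 (SE 0.15) missed the edgeR threshold (adjusted p = 0.0771) and passed that of DESeq2 (adjusted p = 0.0418). When the counts of Cpt1b and Chkb were joined, the pair had 98.8 and 147.7 CPM in FKO, against 36.0, 38.4 and 41.9 CPM in f/f, 3.18-fold higher in FKO (edgeR adjusted p = 0.00266). Cpt1b joined with Gm44502 was 18.4-fold higher (edgeR adjusted p = 0.000661), and all 3 joined were 3.22-fold higher (edgeR adjusted p = 0.00285).

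**Figure D3:**
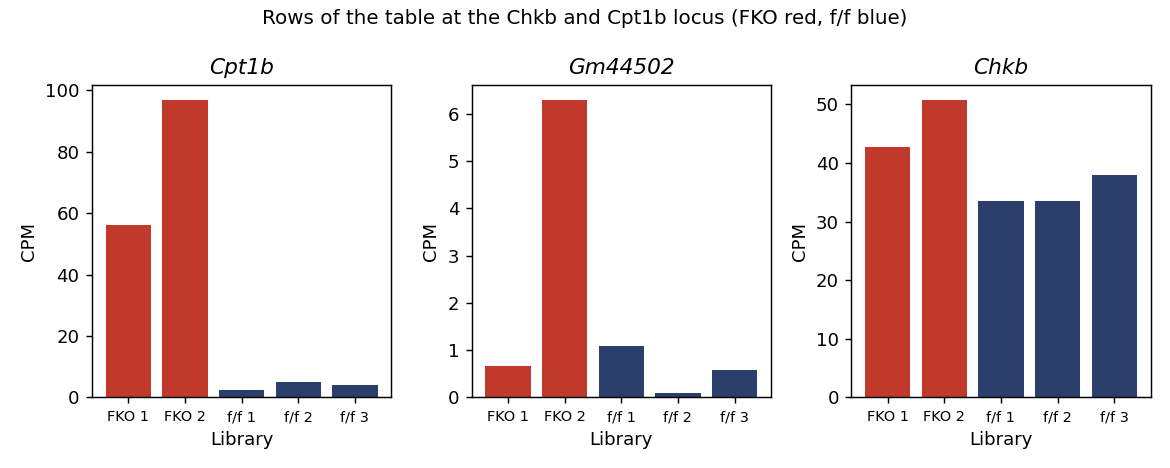
CPM of Cpt1b, the read-through transcript Gm44502 and Chkb in each library, with FKO in red on the left and f/f in blue; each panel has its own axis. Cpt1b is at 56.1 and 96.9 CPM in FKO, whereas Gm44502 does not exceed 6.30 CPM in any library.

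Cpt1c (gene 78070) was the single gene of the shuttle that fell. It had 0.244 and 0.261 CPM in FKO, against 0.843, 0.850 and 1.67 CPM in f/f, or 11 and 11 counts against 38, 50 and 107. Both FKO libraries were below every f/f library. The log2 fold change was -2.14 (SE 0.53, edgeR adjusted p = 0.0268), and the ratio of summed counts was 0.218 with a 95% exact binomial interval of 0.133 to 0.339 that covers counting error only. The excess in f/f replicate 3 was assigned to transcript variant 2. This variant had 53 estimated counts there, 0 and 2 in FKO and 0 in the other f/f libraries. Both variants have the same start and end, with lengths of 2794 and 2792 bases. How well the estimates divide reads between them was not tested. Variant 1 had 11 and 9 counts in FKO and 38, 50 and 54 in f/f. Use of the variants could not be tested, since a single one passed the filter on low counts. The call ended with limma-voom (adjusted p = 0.0507), with the replicate block (0.0716), on the log2(FPKM + 1) scale (0.0544) and without FKO replicate 1 or FKO replicate 2 (0.142 and 0.126), and the gene did not pass the stricter filter.

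Cpt1c is also the neighbour of the deleted gene. It lies on chromosome 7 from 44959372 to 44974851, and 1903 bases separate its end from Prmt1 (44976755 to 44986420). RefSeq places both genes on the minus strand (GRCm38.p6), so the start of Cpt1c faces the 3' end of Prmt1. Prmt1 and Cpt1c both fell in FKO, with log2 fold changes of -0.66 and -2.14, and an effect of the altered allele on its neighbour cannot be told apart from an effect of losing the enzyme. The 6 neuronal markers summed to 0.867 and 1.09 CPM in FKO and 0.782 to 2.0 CPM in f/f, above the level of Cpt1c in 4 of the 5 libraries. The markers did not share a direction. Stmn2, the highest of them, had 23 and 24 counts in FKO and 79, 24 and 84 in f/f (edgeR adjusted p = 0.247). Tubb3 had 2 and 3 counts in FKO and 6, 9 and 14 in f/f. Elavl4 had 4 and 8 counts in FKO and 0 in every f/f library, and Snap25 had 8 and 11 against 3, 13 and 16. Rbfox3 had at most 2 counts in a library, and Syt1 had 0 in every library. The part of neuronal RNA in the Cpt1c result was not tested. The promoter of Cpt1c is shown for this position, 250 bases before to 50 after the start at chr7:44974802-44975101 on the minus strand, with the AGGTCA element of nuclear receptors in capitals.
Cpt1c: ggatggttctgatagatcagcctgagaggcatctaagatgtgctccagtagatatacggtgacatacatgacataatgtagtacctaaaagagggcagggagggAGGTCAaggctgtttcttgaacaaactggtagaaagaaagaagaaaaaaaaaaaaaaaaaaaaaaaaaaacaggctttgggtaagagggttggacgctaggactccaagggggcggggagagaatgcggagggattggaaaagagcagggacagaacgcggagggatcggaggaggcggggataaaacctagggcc

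Within the mitochondrial membranes, the carrier and CPT2 both rose. Slc25a20 (gene 57279, chromosome 9, 108662098 to 108684641), the carnitine-acylcarnitine translocase, had 176.1 and 192.4 CPM in FKO, against 82.7, 71.1 and 69.5 CPM in f/f. The lowest FKO library was above the highest f/f library by more than the whole range of either group. The log2 fold change was 1.31 (SE 0.14, edgeR adjusted p = 0.00226), and the call held in all 15 alternatives (1.07 to 1.40). Cpt2 (gene 12896, chromosome 4, 107903982 to 107923589) had 273.5 and 287.6 CPM in FKO, against 167.4, 133.0 and 139.9 CPM in f/f. Its libraries were again fully separated, with a log2 fold change of 0.93 (SE 0.15, edgeR adjusted p = 0.00753); the call ended without FKO replicate 1 or FKO replicate 2 (edgeR adjusted p = 0.0603 and 0.0678). The ratio of Cpt2 to the sum of the CPT1 genes in FPKM was 2.50 and 1.78 in FKO and 2.90, 1.94 and 2.35 in f/f, so this ratio overlapped between the groups (exact permutation p = 0.6, two-sided).

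The acyltransferases that act on shorter chains rose as well. Crot, the peroxisomal octanoyltransferase that exports medium-chain products of peroxisomal oxidation (gene 74114, chromosome 5, 8966048 to 8997146), had 111.3 and 115.8 CPM in FKO, against 63.0, 58.0 and 47.1 CPM in f/f. The FKO libraries lay close together and above all f/f libraries, with a log2 fold change of 1.02 (SE 0.16, edgeR adjusted p = 0.00673). Without FKO replicate 1 or FKO replicate 2 the adjusted p was 0.0524 and 0.0584. Crat, the acetyltransferase that buffers acetyl-CoA as acetylcarnitine (gene 12908, chromosome 2, 30400476 to 30415748), had 516.3 and 538.5 CPM in FKO, against 351.9, 350.2 and 275.7 CPM in f/f. The groups did not overlap, and the log2 fold change of 0.69 (SE 0.16, edgeR adjusted p = 0.0233) was the smallest of the called genes. The Crat call ended with library size alone (0.48, adjusted p = 0.0508) and without FKO replicate 1 or FKO replicate 2 (adjusted p = 0.132 and 0.148). Crat shares 54 bases with Dolpp1 at its end in the table, and no other gene of the 8 apart from Cpt1b overlaps another.

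Carnitine itself comes into the cell through Slc22a5, the high-affinity carnitine transporter OCTN2 (gene 20520, chromosome 11, 53864542 to 53891703). It had 149.2 and 174.7 CPM in FKO, against 91.3, 58.4 and 69.3 CPM in f/f. Both FKO libraries were above all f/f libraries, with a log2 fold change of 1.15 (SE 0.21, edgeR adjusted p = 0.0100) that lost the call without FKO replicate 2 (1.03, adjusted p = 0.0742). Of 4 other carnitine transporters tested, 1 rose and 1 fell, where 11.9% of all genes tested rose and 13.4% fell. Slc22a4, a related organic cation and carnitine transporter, had 68.4 and 84.0 CPM in FKO against 24.6 to 27.5 CPM in f/f, 2.88-fold higher (edgeR adjusted p = 0.00160). Slc16a9, a carrier linked to carnitine efflux in humans, had 1.71 and 1.28 CPM in FKO against 2.77 to 5.03 CPM in f/f (log2 fold change -1.37, edgeR adjusted p = 0.0294), a call that ended with the replicate block (0.0575) and without FKO replicate 1, FKO replicate 2, f/f replicate 2 or f/f replicate 3 (0.102, 0.170, 0.0623 and 0.0542). In carnitine synthesis, Aldh9a1, the aldehyde dehydrogenase of that pathway, rose 1.88-fold, with 171.6 and 173.4 CPM in FKO, against 81.9 to 98 CPM in f/f (edgeR adjusted p = 0.00617). Shmt2, a serine hydroxymethyltransferase whose family can cleave an intermediate of that pathway, fell 1.60-fold (edgeR adjusted p = 0.0198). Both calls ended without FKO replicate 1 (0.0604 and 0.132) and without FKO replicate 2 (0.0591 and 0.157). Bbox1, the last enzyme of the pathway, had 0 CPM in both FKO libraries and at most 0.109 CPM in f/f.

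**Figure D4:**
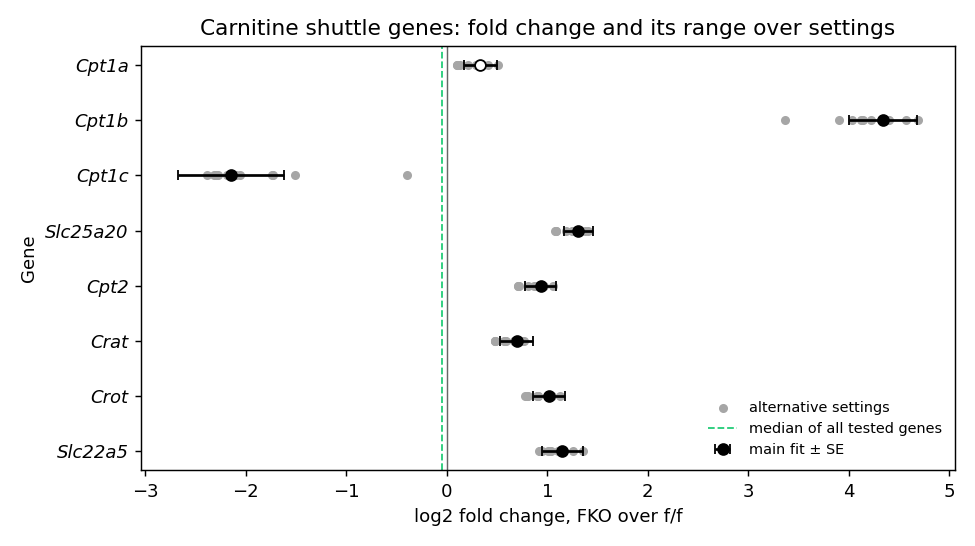
Log2 fold change of FKO over f/f for each gene (horizontal axis), with black points and bars for the edgeR estimate ± SE (n = 2 and 3 libraries), an open point where the test was not passed, grey points for the alternative settings and a dashed line at the median of all genes tested (-0.047). Cpt1b stands at 4.34, 5 genes lie between 0.69 and 1.31, and Cpt1c stands at -2.14 with its alternatives between -2.38 and -0.39.

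Per length, Crat, Cpt2 and Slc25a20 had the highest mean FPKM in both groups, and Cpt1a held rank 6 of the 8 genes in FKO and rank 4 in f/f. In FKO, Crat (107.9 ± 5.03 FPKM, SD, n = 2), Cpt2 (107.3 ± 5.64) and Slc25a20 (92.9 ± 7.39) led, followed by Slc22a5 (46.9), Crot (36.4), Cpt1a (28.0), Cpt1b (23.8) and Cpt1c (0.0754). In f/f, Crat (77.4 ± 6.99 FPKM, SD, n = 3), Cpt2 (65.3 ± 7.45) and Slc25a20 (43.6 ± 3.34) led, followed by Cpt1a (25.8), Slc22a5 (24.6), Crot (20.8), Cpt1b (1.36) and Cpt1c (0.423). Crat and Cpt2 overlapped across libraries in both groups, though Crat was the higher of the pair within each library. In f/f, Cpt1a overlapped with Slc22a5 and Slc22a5 with Crot, and the order within each of these pairs changed between libraries. The order of the genes was not tested. Cpt1a and Cpt1b overlapped in FKO, at 24 and 32 FPKM against 17.2 and 30.5 FPKM, whereas in f/f the lowest Cpt1a library was at 23.9 FPKM and the highest Cpt1b library at 1.72 FPKM.

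The promoters of Cpt2, Slc25a20 and Crot are shown because they share a motif. Of the 8 genes, 6 matched the RefSeq promoter table (GRCm38.p6), Cpt1b and Crat not among them. The profiles of Cpt2, Slc25a20, Crot and Slc22a5 over the 5 libraries, as log2 CPM centred on each gene's mean, lay 0.282 to 0.479 apart in Euclidean distance, against 3.46 to 3.87 between each of them and Cpt1b. Crat lay 0.365 to 0.726 from them and Cpt1a 0.806 to 1.13. The CCGGAAG core of ETS factors (capitals, either strand, CTTCCGG where reversed) was present in Cpt2, Slc25a20 and Crot, 3 of the 6 promoters, against 8.86% of 32851 promoters of the same length in the table. The core was absent from the promoter of Slc22a5, whose profile lay 0.350 to 0.479 from those of these 3 genes. G and C made up 57.3%, 58% and 69.7% of the Cpt2, Slc25a20 and Crot promoters, against a median of 52.7% over all promoters. In Cpt1a, Cpt1c and Slc22a5, which lack the core, they made up 62.3%, 47.3% and 72.7%. The part of base composition in the motif count was not tested. The ETS core, the AGGTCA element and the GGGCGG box were picked after the sequences had been read, so the count is a description.
Cpt2, chr4:107923540-107923839, minus strand: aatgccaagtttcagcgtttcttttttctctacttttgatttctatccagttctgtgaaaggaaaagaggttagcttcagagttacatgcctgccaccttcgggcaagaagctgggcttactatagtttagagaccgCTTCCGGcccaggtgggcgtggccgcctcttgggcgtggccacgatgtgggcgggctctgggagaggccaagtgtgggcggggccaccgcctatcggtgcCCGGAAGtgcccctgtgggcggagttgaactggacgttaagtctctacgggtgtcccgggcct
Slc25a20, chr9:108661886-108662185, plus strand: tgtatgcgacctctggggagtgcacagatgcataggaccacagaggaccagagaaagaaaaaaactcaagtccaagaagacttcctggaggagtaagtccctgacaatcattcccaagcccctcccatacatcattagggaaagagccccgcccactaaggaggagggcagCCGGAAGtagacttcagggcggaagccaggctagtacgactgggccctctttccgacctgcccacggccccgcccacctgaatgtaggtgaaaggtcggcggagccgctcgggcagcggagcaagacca
Crot, chr5:8997097-8997396, minus strand: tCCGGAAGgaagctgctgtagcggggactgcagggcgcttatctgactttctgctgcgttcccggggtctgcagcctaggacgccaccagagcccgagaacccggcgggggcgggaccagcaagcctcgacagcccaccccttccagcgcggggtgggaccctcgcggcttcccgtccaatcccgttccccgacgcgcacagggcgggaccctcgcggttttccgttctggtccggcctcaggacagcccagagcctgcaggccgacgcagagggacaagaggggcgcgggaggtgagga

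Counted from the start of transcription, the core lay at -13 to -7 in Cpt2, with a reversed copy at -113 to -107, at -79 to -73 in Slc25a20 and at -249 to -243 in Crot. The element of PPAR receptors was searched as AGGTCANAGGTCA and that of estrogen-related receptors as TCAAGGTCA, both strands, where the second contains the AGGTCA element and so does each end of the first. Neither was found in the 6 promoters, and they occur in 0.0396% and 0.423% of all promoters in the table. At such shares a match in 6 promoters was unlikely from the outset, so nothing is drawn from the absence. The promoter of Cpt1b was not among those searched. The AGGTCA element was present in Cpt1a and Cpt1c (16.3% of all promoters), and the GGGCGG box in all 6 (35.7% of all promoters).

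The genes around the shuttle were read from lists of textbook members. The counts per list below stand beside 11.9% called higher and 13.4% called lower over all genes tested. Among 12 genes listed for malonyl-CoA control of CPT1, most of them subunits of the kinase AMPK, 4 rose and 3 fell (median log2 fold change 0.29). The 3 that fell, Prkab2, Prkag2 and Prkag3, were all AMPK subunits, as were Prkaa1 and Prkaa2 among those that rose. Acacb, the acetyl-CoA carboxylase whose malonyl-CoA is made beside CPT1, had 788.2 and 904.8 CPM in FKO against 175.2 to 250.1 CPM in f/f, 4.13-fold higher (edgeR adjusted p = 0.00158). Mlycd, which breaks malonyl-CoA down, had 39.4 and 41.0 CPM in FKO against 37.3 to 42.0 CPM in f/f (log2 fold change 0.035, edgeR adjusted p = 0.864). Acaca, another acetyl-CoA carboxylase on the list, had 1001 and 939.1 CPM in FKO against 257.5 to 747.2 CPM in f/f. The groups did not overlap, but its log2 fold change of 0.92 missed the edgeR threshold (adjusted p = 0.120). Transcripts of Acacb were thus higher in the same libraries as Cpt1b, those of Acaca were not called, and those of Mlycd overlapped between groups. Prkaa2, a catalytic subunit of the kinase AMPK, which inhibits acetyl-CoA carboxylase, rose 3.41-fold (edgeR adjusted p = 0.00824, and 0.0509 without FKO replicate 2). Prkag3, a regulatory subunit of the same kinase known from muscle, fell 6.58-fold (edgeR adjusted p = 0.00583). Without FKO replicate 1 or FKO replicate 2, 2 and 1 of the 12 genes rose and 1 fell, and without f/f replicate 1, 5 rose and 1 fell.

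Of 7 genes that activate long-chain fatty acids to acyl-CoA, the substrate of CPT1, 5 rose and the other 2 did not pass the test (median log2 fold change 1.15). Slc27a2, with 12 and 16 counts in FKO and 0 in every f/f library, was at least 18.1-fold higher, with the f/f group set to 3 counts in all; the median is 1.15 with this bound too. Its edgeR adjusted p was 0.0181, and 0.0580 with the replicate block and 0.0792 without FKO replicate 1. Acsl1, the main synthetase of adipocytes, had 5209 and 3506 CPM in FKO against 1246 to 2380 CPM in f/f (edgeR adjusted p = 0.0382), a call that ended in 7 of 15 alternatives, among them without FKO replicate 1, FKO replicate 2, f/f replicate 1 or f/f replicate 2 (0.223, 0.0684, 0.0591 and 0.0568). Slc27a1, a fatty acid transport protein with synthetase activity, rose 2.23-fold and Acsl3 2.34-fold, with edgeR adjusted p = 0.00474 and 0.00288; without FKO replicate 1 that of Slc27a1 was 0.0509. Of the 7 genes 3 rose with library size alone, and 1 and 2 without FKO replicate 1 or FKO replicate 2. Of 8 acyl-CoA thioesterases, which release the fatty acid again, 3 rose and 1 fell (median 0.53). Them4, the first of these by p, had 12.9 and 12.1 CPM in FKO against 5.49 to 7.43 CPM in f/f (edgeR adjusted p = 0.0176, and 0.128 and 0.0892 without FKO replicate 1 or FKO replicate 2). Without FKO replicate 1 or FKO replicate 2 no thioesterase was called in either direction. With library size alone none of the 8 rose (Them4 at edgeR adjusted p = 0.0535), and 1 rose without f/f replicate 2.

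Downstream of the shuttle, 13 of 15 genes of mitochondrial beta-oxidation rose and the other 2 did not pass the test (median 1.01). With library size alone and on either FPKM scale, 9 of the 15 rose. Without FKO replicate 1 or FKO replicate 2, 7 and 6 rose. Hadha, a subunit of the trifunctional protein, rose 3.48-fold, and Acadvl and Acadl, dehydrogenases of very long and long chains, rose 2.78- and 2.48-fold (edgeR adjusted p = 0.00159, 0.00272 and 0.00227). In peroxisomal oxidation, which supplies Crot, 7 of 13 genes rose and the other 6 did not pass the test (median 0.66); 4 rose without FKO replicate 1 or FKO replicate 2, and with library size alone 5 rose and 2 fell. Ehhadh, the bifunctional enzyme, had 509.5 and 936.5 CPM in FKO against 81.6 to 109.1 CPM in f/f, 7.86-fold higher (edgeR adjusted p = 0.00150), and Acaa1b, a thiolase, rose 4.44-fold (edgeR adjusted p = 0.00120).

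Of 12 nuclear receptors and coactivators known to act on beta-oxidation genes, 7 rose and the other 5 did not pass the test (median 0.85). The number was 4 with library size alone or without f/f replicate 3, and 3 and 2 without FKO replicate 1 or FKO replicate 2. Ppargc1a, the coactivator PGC-1 alpha, had 29.9 and 31.1 CPM in FKO against 3.83 to 8.16 CPM in f/f (edgeR adjusted p = 0.00335). Esrra, an estrogen-related receptor, rose 3.6-fold and Ppargc1b 2.53-fold (edgeR adjusted p = 0.00195 and 0.00610); that of Ppargc1b was 0.0537 without FKO replicate 2. Ppara, the receptor for which Cpt1b, Crot and Ehhadh are known targets, had 44.8 and 45.3 CPM in FKO against 11 to 24.3 CPM in f/f (edgeR adjusted p = 0.0205, and 0.0924, 0.0883 and 0.0522 without FKO replicate 1, FKO replicate 2 or f/f replicate 2).

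Markers of tissues that use Cpt1b were measured beside it, where 11.9% of all genes tested were called higher and 13.4% lower. Of 10 skeletal muscle markers, Myh2 and Myh4 had 0 counts in every library, and Ckm, Myh1, Tnnt3 and Tnni2 had 0 counts in both FKO libraries and at most 21 in an f/f library. Pvalb had 4 and 0 counts in FKO against 10, 20 and 60 in f/f, and Actn3 had 6 and 0 in FKO against 23, 33 and 29 in f/f. These differences missed the edgeR threshold (adjusted p = 0.0695 and 0.0633), and DESeq2 called 2 of the 4 muscle markers tested lower. Mylpf had 7 and 6 counts in FKO against 7, 15 and 28 in f/f. The highest muscle marker, Acta1, had 133.1 and 110.4 CPM in FKO against 62.6 to 140.0 CPM in f/f, and passed the test with the replicate block alone (edgeR adjusted p = 0.0344). Of 7 brown adipocyte markers 3 rose and the other 4 did not pass the test; 1 rose without FKO replicate 1 or FKO replicate 2. Cidea, a lipid droplet protein, had 47.6 and 70.2 CPM in FKO against 2.97 to 6.32 CPM in f/f, and Elovl3, an elongase, had 1.04 and 0.689 CPM in FKO against 0.102 to 0.200 CPM in f/f (edgeR adjusted p = 0.0187, with 0.0504 in the replicate block and 0.158 and 0.0720 without FKO replicate 1 or FKO replicate 2). Ucp1, the uncoupling protein that defines brown fat, had 0.289 and 0 CPM in FKO against 0.0781 to 1.13 CPM in f/f (edgeR adjusted p = 0.487). Prdm16, another of the 7, was lower in both FKO libraries, at 1.38 and 2.76 CPM against 3.70 to 4.47 CPM in f/f. Its log2 fold change of -0.96 missed the edgeR threshold (adjusted p = 0.0824). DESeq2 called 4 of the 7 brown adipocyte markers higher and 1 lower.

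The genes with profiles nearest to Cpt1b over the 5 libraries, by Euclidean distance of centred log2 CPM, were Tsku (0.389), Pla2g5 (0.563), Cacnb4 (0.720), Tmem79 (0.760) and Maoa (0.820). Tsku, a secreted proteoglycan, had 77.5 and 94.8 CPM in FKO against 2.99 to 5.37 CPM in f/f, and Maoa, monoamine oxidase A, had 621.4 and 1563 CPM in FKO against 58.1 to 73.7 CPM in f/f. Nearest to Slc25a20 were Psmd5 (0.0610), Slc25a33 (0.0672), Ldlrad3 (0.0864), Akr1b10 (0.0975) and Acadl (0.102), the last of which is itself a gene of beta-oxidation, with 812.9 and 901.2 CPM in FKO against 332.3 to 366.0 CPM in f/f. These distances rest on 5 libraries in 2 groups.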

How the data were processed

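Poly-A RNA of primary epididymal adipocytes was, per the labels' protocols, sequenced from TruSeq libraries (HiSeq4000). The submitters' processing notes name HISAT2 2.1.0, HISAT, Bowtie2, StringTie 1.3.4d and mm10. The authors deposited estimated counts per RefSeq transcript, unscaled and written as whole numbers, and FPKM values, which per the file headers scale fragments by length and depth. In rows under 20 counts the count exceeded that implied by FPKM by 0 to 1 in 100% of rows. The single row that names no gene was left out, which left 36779 transcripts. Groups came from the titles, and no batch is labelled.

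Counts were summed per gene and tested in R 4.3.3 with edgeR 4.0.16 (quasi-likelihood, TMM, filterByExpr, genotype alone, all 5 libraries). SE is the log2 fold change divided by √F, and fold changes come from the fit. Members and lists were chosen with earlier results of these data known. Named are the 8 genes, Chkb, up to 3 genes per list by smallest p, and the 5 nearest profiles with a mean of at least 1 CPM (prior count 2); Gm44502, Mlycd, Ppara, Acsl1, Bbox1, Prmt1 and the other genes outside this rule were chosen after their values were seen. Acot13, Acot5, Acox2, Shmt1 and Slc25a29 also met the rule and are not described. The tests were tried on simulated data. The table can split counts between overlapping genes, and its use of strand is not given in the sources used here. At these depths 3 counts, the limit that a count of 0 allows, are 0.0526 to 0.0688 CPM. No library was a copy of another (median chi-square per gene 3.71 to 15.5, where noise gives 0.455). Alternatives were RLE and upper-quartile factors, library size alone, 2 filters, the replicate block, DESeq2 1.42.0, limma 3.58.1 (voom, and log2 of FPKM plus 0.1 or 1) and each library left out. The joined features with Gm44502 were added after seeing the data.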

Additional observations from a re-analysis of the deposited data

How the results depend on the processing

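The 8 genes kept their direction in every alternative that gave a value. Relative to all genes, their median log2 fold change lay 1.02 to 1.03 higher with TMM, RLE, upper-quartile factors and library size alone. Scaling factors move the log2 fold changes of all genes nearly alike, so this gap could hardly change between these settings. Over all settings it was 0.892 (log2(FPKM + 1) scale) to 1.12 (without f/f replicate 1). The median of all genes moved from -0.047 with TMM to -0.17 with upper-quartile factors and -0.27 with library size alone. The share of called genes that rose moved from 47.1% to 35% and 26.1% in the same settings (26.9% and 28.8% on the 2 FPKM scales). With 1 FKO library left, 909 genes were called without FKO replicate 1 and 1022 without FKO replicate 2, against 3674, so that leaving out a library gave 909 to 3449; the fits with 1 FKO library assume that it varies like the f/f group. The number of shuttle genes called was 7, and 2 to 7 with a library left out: Cpt1b, Slc25a20 and Slc22a5 held without FKO replicate 1, and Cpt1b and Slc25a20 without FKO replicate 2. The Cpt1b share differed by 36.8 to 43.8 percentage points with a library left out and by 32.4 in estimated counts. Transcript use could be tested for 0 of the 8 genes, since Cpt1c, the single gene with a second transcript row, kept 1 row after the filter; without FKO replicate 1 or FKO replicate 2 it kept both and 1 gene was tested (0 to 1 with a library left out).

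Mlycd, not called in any setting, changed sign to -0.088 (upper-quartile factors), -0.19 (library size), -0.18 and -0.17 (FPKM plus 0.1 and plus 1) and lay between -0.0039 and 0.084 with a library left out, below 0 without f/f replicate 3; the cause was not tested.

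The replicate numbers do not pair the libraries in the labels, and same-numbered libraries correlated at 0.0657 and -0.0812 in their deviations from the group means. With the replicate block 3278 genes were called, and 6 of the 8 rose and 0 fell, since Cpt1c lost its call. The block moved no other shuttle gene across the threshold. Depth limits the results on low counts, such as Cpt1c with 22 counts over the FKO libraries and Slc27a2 with 0 in f/f.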
